A study of Mus musculus with 3 samples.

Results

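The genes described here are the replication-dependent histone genes, taken as every row of the deposited matrices whose symbol begins with Hist1h, Hist2h, Hist3h or Hist4h. There were 67 such genes among 32285 rows: 6 for the linker histone H1, 18 for H2A, 18 for H2B, 12 for H3 and 13 for H4. In mouse they lie in clusters: the 54 Hist1 genes fall in 3 blocks of chromosome 13 (chr13:21715763-21837530, chr13:22035164-22043676 and chr13:23531050-23934851), the 10 Hist2 genes on chromosome 3 (chr3:96219865-96270132), the 2 Hist3 genes on chromosome 11 (chr11:58948920-58956830) and the single Hist4 gene on chromosome 6 (chr6:136801553-136804415). Positions are those of GENCODE M21 on GRCm38, in which all 67 identifiers were found.

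Histones are the proteins around which DNA is wound: H2A, H2B, H3 and H4 form the nucleosome core, and H1 binds the DNA between nucleosomes. The replication-dependent genes are mostly free of introns and are transcribed together in S phase, when new chromatin is packed behind the replication fork. Their messages are the exception among animal mRNAs in ending in a short stem-loop, bound by SLBP (stem-loop binding protein), instead of a poly-A tail, and they are degraded when DNA synthesis stops. Some of these genes can also make polyadenylated messages, a form described in differentiated and non-dividing cells.

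The libraries came from organoids of the submandibular salivary gland of C57BL/6 mice aged 8-12 weeks, with cells of 4 animals in the culture and no label tying a cell to an animal. The Proton library was from organoids given 7 Gy of protons (beam plateau) on day 5, the Photon library from organoids given 7 Gy of photons on day 5, and the Control library from organoids left unirradiated. All were collected on day 11, 6 days after irradiation. All grew in Matrigel in the same medium with EGF, FGF2, insulin, dexamethasone, Y27632 (a ROCK inhibitor) and media conditioned with Wnt3a and R-spondin1, and all were sorted as propidium iodide negative single cells. Each condition is 1 library of a droplet 3′ assay, so there is no replicate, no test between conditions and no p-value, and every interval given is an exact 95% interval for counting error only.

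After filtering, 13956 barcodes were kept in the Proton library, 15041 in the Photon library and 13219 in the Control library. The median barcode held 2223 UMIs (unique molecular identifiers, each 1 captured molecule) in Proton, 2808 in Photon and 2757 in Control. Expression is given as CPM, the UMIs of a gene per 1000000 UMIs summed over barcodes; 3 counts, taken as the floor, amount to 0.0818 CPM in Proton, 0.0639 in Photon and 0.0759 in Control. Pairs of libraries shared 55 to 61 deposited barcode sequences. The 8 epithelial keratin and adhesion markers summed to 4576 CPM in Proton, 8167 in Photon and 5988 in Control, whereas the summed immune, fibroblast and endothelial markers ranged from 0.409 to 2.18 CPM and both erythroid markers were at 0. Ribosomal protein genes held 20.3% of UMIs in Proton, 18.6% in Photon and 16.5% in Control, and mitochondrial transcripts 1.80%, 2.23% and 3.29% in the same order.

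The assay primes on poly-A, so a histone message that ends at its stem-loop is captured poorly and the levels below are levels of what was captured. The annotated 3′ ends were therefore searched for the stem-loop, defined as 16 bases with a 6-base arm starting GG, a 4-base loop starting TT and a fully paired second arm. It was found in 44 of the 67 genes, in 6 forms, shown here as DNA letters from the GENCODE M21 transcripts because the loop marks where the replication-type message ends. The arms are in capitals and the loop in lower case.
26 genes of H1, H2A, H2B and H3: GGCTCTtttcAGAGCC
7 genes of H4: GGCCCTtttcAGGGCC
6 genes of H1, H2B and H3: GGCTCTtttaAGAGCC
2 genes of H4: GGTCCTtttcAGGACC
2 further genes of H4: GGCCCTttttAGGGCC
1 gene of H2A: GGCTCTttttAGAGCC
The arms of the H4 genes differed from those of the other classes, which all used the arms of the first form.

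Of the 44 genes with a stem-loop, 22 had an annotated transcript that ran on for more than 100 bases after it and 22 ended within 100 bases. In the other 23 genes the annotated transcript held no such loop, among them Hist1h1b and Hist1h1a, whose models end near the coding sequence, and Hist1h2bc, whose annotated message of 1156 bases is spliced from 2 exons. A poly-A signal, AATAAA or ATTAAA, stood in the last 40 bases of 15 genes. The copies are alike: in 38 genes more than 50% of the 50-base stretches in the last 400 bases of the message also occurred in another gene, and in 17 genes none did. Levels of the H2A, H2B, H3 and H4 copies with shared ends are therefore uncertain between copies. How far the sum over all members is affected depends on how shared reads were counted, which is not stated.

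Promoters of 60 genes were matched in RefSeq (GRCm38.p6). The letters TATAAA, on either strand, were in 58.3% of them, against 13.6% of all 32851 promoter windows of the same length. CCAAT on either strand was in 85.0% against 37.4%: it was in every matched H1, H2A, H2B and H3 promoter and in 3 of 12 of those of H4. The octamer ATTTGCAT was in 21.7% against 1.74%, in 7 of 17 H2A and 6 of 15 H2B promoters and in none of the others. Each motif was searched for on its own, so matches may overlap, and a match describes the window only.

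The promoter windows of 4 genes are shown because their levels below go with Top2a in the first 2 and not in the last 2. Hist1h1b (H1f5 in RefSeq) and Hist1h2ae (H2ac8) are on the minus strand at chr13:21780576-21780875 and chr13:23571171-23571470, and Hist1h1c (H1f2) and Hist3h2a (H2aw) on the plus strand at chr13:23738557-23738856 and chr11:58954435-58954734. Capitals mark the 3 motifs on either strand, and each window runs from 250 bases before to 50 after the start of the gene.
Hist1h1b: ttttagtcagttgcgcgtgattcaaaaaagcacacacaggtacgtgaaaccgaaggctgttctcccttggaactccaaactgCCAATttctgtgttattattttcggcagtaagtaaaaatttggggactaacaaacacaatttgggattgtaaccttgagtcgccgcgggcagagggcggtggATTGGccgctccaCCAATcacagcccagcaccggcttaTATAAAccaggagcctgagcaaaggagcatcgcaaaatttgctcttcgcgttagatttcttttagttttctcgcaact
Hist1h2ae: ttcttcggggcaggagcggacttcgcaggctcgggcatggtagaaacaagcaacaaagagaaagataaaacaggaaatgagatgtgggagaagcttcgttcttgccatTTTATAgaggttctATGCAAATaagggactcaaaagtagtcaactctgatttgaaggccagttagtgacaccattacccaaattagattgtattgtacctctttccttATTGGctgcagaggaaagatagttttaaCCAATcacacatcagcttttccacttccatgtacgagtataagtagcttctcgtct
Hist1h1c: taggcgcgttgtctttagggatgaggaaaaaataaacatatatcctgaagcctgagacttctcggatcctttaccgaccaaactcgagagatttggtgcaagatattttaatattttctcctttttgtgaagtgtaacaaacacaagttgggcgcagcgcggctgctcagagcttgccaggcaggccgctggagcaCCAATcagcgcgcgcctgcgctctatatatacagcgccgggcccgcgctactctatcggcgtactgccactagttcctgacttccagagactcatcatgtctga
Hist3h2a: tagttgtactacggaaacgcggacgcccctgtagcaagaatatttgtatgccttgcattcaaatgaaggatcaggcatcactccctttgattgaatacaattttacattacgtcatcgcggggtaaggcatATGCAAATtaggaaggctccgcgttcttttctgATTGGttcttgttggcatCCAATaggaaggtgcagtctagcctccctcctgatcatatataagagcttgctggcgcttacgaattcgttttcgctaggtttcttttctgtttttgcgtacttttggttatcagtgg
CCAAT was in all 4 windows. The exact letters TATAAA were in the windows of Hist1h1b and Hist1h2ae, in the latter on the other strand. Those of Hist1h1c and Hist3h2a held the near match TATATA, which the search did not count. The octamer was in the windows of Hist1h2ae and Hist3h2a, on the other strand in both.

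Summed over the 67 genes, histone transcripts stood at 289 CPM in Proton (10604 UMIs), 449 CPM in Photon (21087 UMIs) and 158 CPM in Control (6252 UMIs). Both irradiated libraries were higher than Control, and Photon was the highest. The ratio to Control was 1.83 (interval 1.77 to 1.88) for Proton and 2.84 (2.76 to 2.92) for Photon, and Proton over Photon was 0.643 (0.628 to 0.658). The median over all genes measured was shifted by −0.12 (log2) in Photon over Control, 0.03 in Proton over Control and 0.12 in Proton over Photon.

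At least 1 UMI was found for 58 members in Proton, 62 in Photon and 52 in Control, and 5 members had none in any library. Hist1h2aa and Hist1h2ba, known as histones of the male germ line, were among those 5, and the testis linker histone Hist1h1t had 3, 1 and 2 UMIs in Proton, Photon and Control. Levels were concentrated: 8 genes with a mean of at least 5 CPM over the libraries held 81.5% to 83.3% of the histone UMIs of each library, and 25 genes averaged at least 1 CPM. The other 42 genes together gave 10.8 CPM in Proton, 14.4 CPM in Photon and 5.67 CPM in Control. Each 3′ end is counted once, so these CPM are not divided by length; across genes they also carry how well each message is captured.

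**Figure D1:**
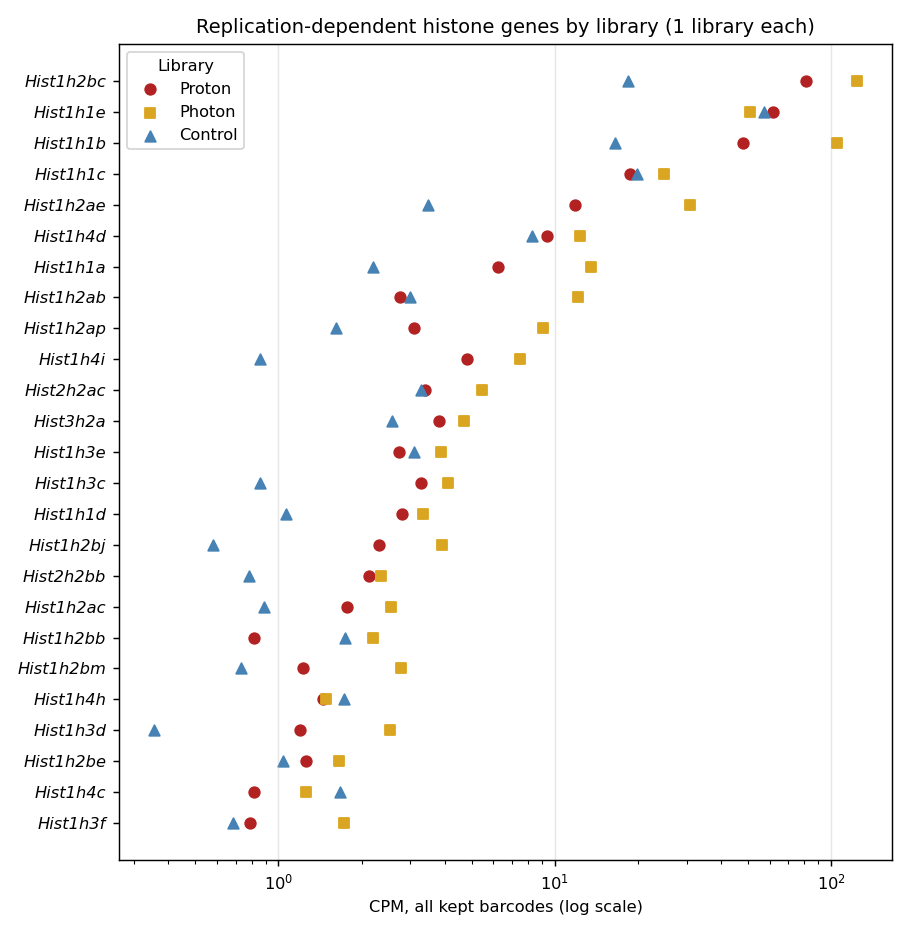
CPM (log scale) of the 25 histone genes with the highest mean level, 1 point per library. The Photon point is the rightmost for 22 of the 25 genes, all but Hist1h1e, Hist1h4h and Hist1h4c, and the widest Photon to Control gaps on this scale include those of Hist1h2ae (8.90 times) and Hist1h4i (8.69 times).

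Among the linker histones, which took 47.7% of histone UMIs in Proton, 44.1% in Photon and 61.3% in Control, the genes did not move together. Hist1h1b was at 48.1 CPM in Proton, 105 CPM in Photon and 16.5 CPM in Control, 2.92 times Control in Proton (2.67 to 3.20) and 6.39 times in Photon (5.89 to 6.95). Hist1h1a was at 6.24 CPM in Proton, 13.5 CPM in Photon and 2.20 CPM in Control, which is 2.84 and 6.15 times Control. These linker histone genes had nearly the same ratios, and neither has a 3′ end shared with another gene. Hist1h1d was at 2.81 CPM in Proton, 3.32 CPM in Photon and 1.06 CPM in Control.

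By contrast, Hist1h1e was close to level across libraries, at 61.9 CPM in Proton, 50.8 CPM in Photon and 57.3 CPM in Control. Its ratio to Control was 1.08 (1.02 to 1.15) in Proton and 0.887 (0.837 to 0.940) in Photon, and it was the only one of the 25 genes above its Photon level in Proton, at 1.22 times (1.15 to 1.29). Hist1h1c, too, stayed within 1.5-fold, with 18.8 CPM in Proton, 24.9 CPM in Photon and 19.9 CPM in Control. In Control, Hist1h1e gave more UMIs (2264) than any other histone gene. The annotated end of Hist1h1e lies wholly within same-strand transcripts of Hist1h2be and Gm11398, and how such reads were assigned is not stated, so the level of Hist1h1e is uncertain.

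Of the H2A genes, Hist1h2ae was the highest, at 11.9 CPM in Proton, 30.9 CPM in Photon and 3.47 CPM in Control, 3.42 (2.82 to 4.17) and 8.90 (7.47 to 10.7) times Control. Hist1h2ab showed a Photon excess alone: 2.75 CPM in Proton, 12.1 CPM in Photon and 2.99 CPM in Control, a ratio of Proton to Photon of 0.227 (0.182 to 0.281), the lowest of the 25 genes. Hist1h2ap was at 3.11 CPM in Proton, 9.10 CPM in Photon and 1.62 CPM in Control. The 3 genes share stretches of their ends with up to 24 other genes (70.1% of those of Hist1h2ab, all of Hist1h2ap and 44.2% of Hist1h2ae), and each lies opposite an annotated antisense Gm gene. Hist2h2ac was at 3.38, 5.43 and 3.29 CPM in Proton, Photon and Control, Hist3h2a at 3.82, 4.71 and 2.58 CPM, and Hist1h2ac at 1.77, 2.56 and 0.886 CPM.

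The H2B class was dominated by Hist1h2bc, the histone gene with the highest mean level. It was at 81.4 CPM in Proton (2986 UMIs), 124.5 CPM in Photon (5842 UMIs) and 18.35 CPM in Control (725 UMIs), 4.44 (4.09 to 4.82) and 6.78 (6.28 to 7.34) times Control. Only 2.28% of the 50-base stretches in its annotated end occur elsewhere. Without it the histone sum was 208 CPM in Proton, 325 CPM in Photon and 140 CPM in Control, and the ratio to Control 1.48 for Proton and 2.32 for Photon. The next H2B genes were far lower: Hist1h2bj was at 2.32, 3.92 and 0.582 CPM in Proton, Photon and Control, Hist2h2bb at 2.13, 2.34 and 0.784 CPM, Hist1h2bm at 1.23, 2.77 and 0.734 CPM and Hist1h2be at 1.25, 1.66 and 1.04 CPM. Hist1h2bb, in contrast, was lower in Proton than in the other libraries, at 0.818 CPM in Proton, 2.19 CPM in Photon and 1.75 CPM in Control, 0.468 times Control (0.294 to 0.729).

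For H3, the class summed to 11.6 CPM in Proton, 15.5 CPM in Photon and 6.02 CPM in Control. Hist1h3c was at 3.27 CPM in Proton, 4.11 CPM in Photon and 0.860 CPM in Control, and Hist1h3d at 1.20, 2.54 and 0.354 CPM in the same order. Hist1h3e, at 2.73 CPM in Proton, 3.88 CPM in Photon and 3.09 CPM in Control, differed less, and Hist1h3f was at 0.790, 1.73 and 0.683 CPM. For H4, Hist1h4i stood apart with 4.82 CPM in Proton, 7.48 CPM in Photon and 0.860 CPM in Control, 5.61 (3.87 to 8.35) and 8.69 (6.10 to 12.8) times Control; its annotated end is shared with no other gene. Hist1h4d was within 1.5-fold at 9.40, 12.3 and 8.30 CPM in Proton, Photon and Control. Hist1h4c, at 0.818 CPM in Proton, 1.26 CPM in Photon and 1.67 CPM in Control, and Hist1h4h, at 1.44, 1.49 and 1.72 CPM, were highest in Control.

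Counted by size alone (a 1.5-fold difference or more in genes averaging at least 5 CPM, which 8 of the 67 members do), Photon over Control had 5 members higher (Hist1h2bc, Hist1h1b, Hist1h2ae, Hist1h1a and Hist1h2ab) and 0 lower; of all genes measured 7.64% were higher and 9.16% lower. The members' median log2 ratio was 2.32, beside −0.12 over all genes. In Proton over Control 4 of the 8 were higher (the same without Hist1h2ab) and 0 lower, beside 14.3% and 14.8% of all genes, with a median of 0.84 beside 0.03. In Proton over Photon 0 were higher and 5 lower, beside 22.1% and 14.2%, with a median of −0.87 beside 0.12. The highest ratios of Photon to Control were those of Hist1h2ae, Hist1h2bc and Hist1h1b and the lowest those of Hist1h1e, Hist1h1c and Hist1h4d; for Proton to Control the highest were Hist1h2bc, Hist1h2ae and Hist1h1b and the lowest Hist1h2ab, Hist1h1c and Hist1h1e. With the minimum lowered to 1 CPM, 25 members were measured: 18 higher and 0 lower in Photon over Control (background 9.45% and 13.3%), 13 higher and 2 lower in Proton over Control (16.4% and 17.0%), and 0 higher and 14 lower in Proton over Photon (22.9% and 14.3%).

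Top2a encodes topoisomerase IIα, which untangles DNA in S phase, G2 and mitosis, and its transcript marks dividing cells. At least 1 Top2a UMI was found in 996 barcodes in Proton (7.14%, Clopper-Pearson interval 6.72 to 7.58%), 1262 in Photon (8.39%, 7.95 to 8.85%) and 233 in Control (1.76%, 1.55 to 2.00%). With each barcode thinned to 2000 UMIs, which left out 43.1% of barcodes in Proton, 27.6% in Photon and 27.2% in Control as too shallow, the shares were 7.29%, 6.94% and 1.31%. Barcodes with Top2a were deeper than the rest, with a median of 3850 UMIs against 2139 in Proton, 4513 against 2669 in Photon and 4967 against 2740 in Control.

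Histone transcripts were denser in these barcodes in each library. The sum was 941 CPM with Top2a and 205 CPM without in Proton, 1637 CPM with and 270 CPM without in Photon, and 843 CPM with and 136 CPM without in Control. The ratio was 4.59 (4.41 to 4.77) in Proton, 6.07 (5.91 to 6.24) in Photon and 6.18 (5.78 to 6.61) in Control. Barcodes with Top2a held 11.4% of all UMIs but 37.1% of histone UMIs in Proton, 13.1% and 47.8% in Photon, and 3.10% and 16.5% in Control. The level increased with the number of Top2a UMIs: with 0, 1, 2 to 4 and 5 or more, it was 205, 645, 1196 and 1303 CPM in Proton, 270, 1049, 2029 and 2164 CPM in Photon and 136, 365, 1137 and 1432 CPM in Control. Most of the step lay between 0 and 2 Top2a UMIs, and depth was higher along the same bins, with a median of 6387 UMIs in the top bin of Proton, 6058 in Photon and 7532 in Control.

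The genes differed widely by this measure, with ratios from 0.583 to 22.0 in Proton. In 22 of the 25 genes the level with Top2a was at least 1.5 times that without in all 3 libraries, and in 9 it was at least 10 times. In 21 the interval lay above 1 in all 3 libraries. The share of all genes under this joint rule was not taken, and shares per library are given below. The intervals treat each UMI as independent and leave out the spread between barcodes, so the count of 21 is not a test. In Control, for example, the 348 Hist1h1b UMIs with Top2a lay in 79 of 233 barcodes. Some ratios rest on few UMIs, as for Hist1h4i, with 5 in Control barcodes with Top2a. Among the genes with the most UMIs the highest ratio was that of Hist1h1b, at 312 CPM with Top2a and 14.2 CPM without in Proton, 651 and 22.9 CPM in Photon and 284 and 7.91 CPM in Control, ratios of 22.0, 28.4 and 35.9. Hist1h2ae had ratios of 20.9, 24.03 and 29.1 in Proton, Photon and Control, Hist1h2ap 18.3, 17.5 and 33.3, Hist1h1a 19.6, 26.5 and 14.1, and Hist1h2ab 13.5, 13.7 and 17.3. For Hist1h3c the ratio was 18.2 in Proton, 39.0 in Photon and 121 in Control, the last with only 7 UMIs outside Top2a barcodes and an interval of 51.2 to 328.

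Lower ratios were found for Hist1h1e, with 4.87, 6.66 and 3.23 in Proton, Photon and Control, Hist1h4d, with 5.58, 5.93 and 4.22, and Hist1h4i, with 2.42, 2.94 and 5.39. The 3 exceptions were Hist1h1c, Hist3h2a and Hist1h2bc. Hist1h1c was nearly level, at 23.0 CPM with Top2a and 18.3 CPM without in Proton, 28.4 and 24.4 CPM in Photon, and 23.7 and 19.8 CPM in Control. Hist3h2a had ratios of 1.01 in Proton, 0.623 in Photon (0.367 to 0.998) and 0.626 in Control, the last from 2 UMIs with Top2a and an interval of 0.0747 to 2.32. Its row overlaps Trim17 on the same strand and Gm44313 on the other, so its reads are not certain to be its own.

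Hist1h2bc was lower in barcodes with Top2a: 49.8 CPM with and 85.4 CPM without in Proton (ratio 0.583, 0.504 to 0.672), 79.2 and 131 CPM in Photon (0.603, 0.549 to 0.662), and 14.7 and 18.5 CPM in Control (0.796, 0.469 to 1.27, which includes 1). In barcodes thinned to 2000 UMIs, a Hist1h2bc UMI was found in 8.81% of those with Top2a and 14.0% of those without in Proton, in 13.0% and 19.9% in Photon, and in 2.38% and 3.38% in Control. The unthinned shares were 14.2% and 15.7% in Proton, 24.2% and 24.2% in Photon and 6.44% and 4.70% in Control. For Hist1h1b the thinned shares were 34.9% with Top2a and 3.38% without in Proton, 52.8% and 4.88% in Photon, and 24.6% and 1.94% in Control; no class known to lack these transcripts was available as a measure of free RNA.

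**Figure D2:**
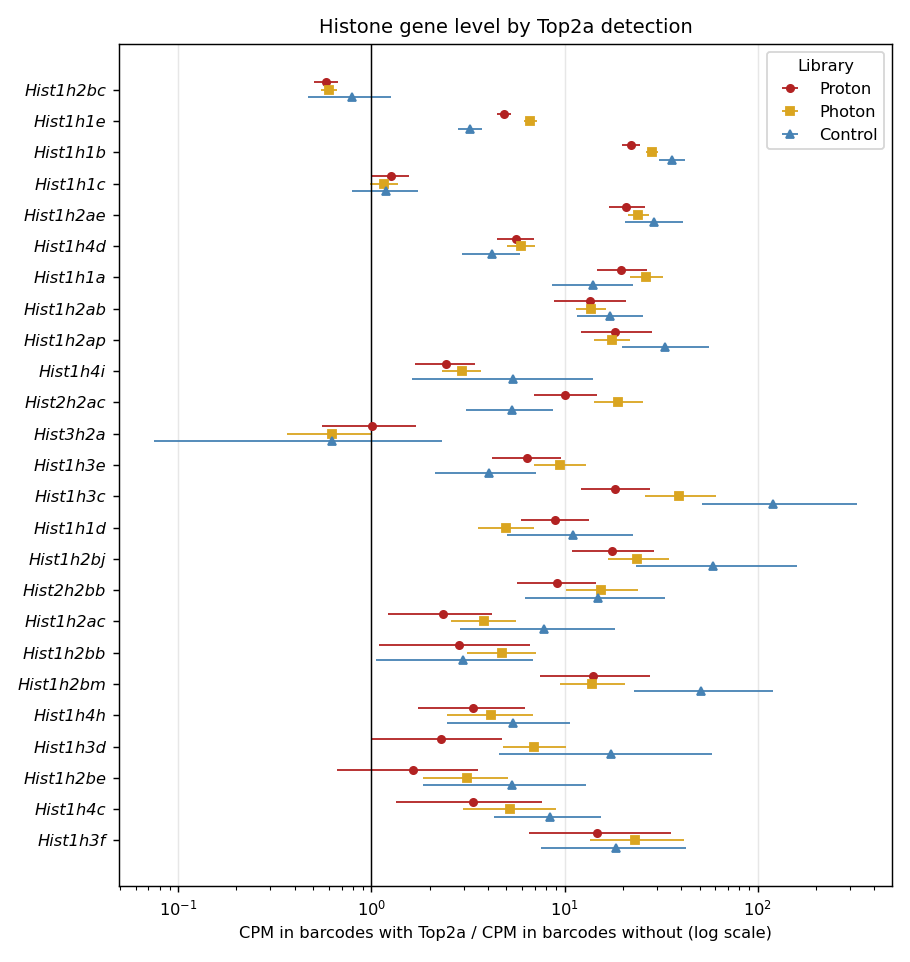
CPM in barcodes with at least 1 Top2a UMI divided by CPM in barcodes without (log scale) for the 25 genes, with exact 95% counting intervals, 1 point per library. Hist1h1b and Hist1h2ae lie between 20.9 and 35.9, and Hist1h1c between 1.16 and 1.26. Hist1h2bc lies under 1 in all 3 libraries, with a Control interval that includes 1, and Hist3h2a at 1.01 in Proton, 0.623 in Photon and 0.626 in Control.

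By the size rule, with over without Top2a, 14 of 16 members measured were higher and 1 (Hist1h2bc) lower in Proton, beside 7.8% and 12.6% of all genes. In Photon 17 of 19 were higher and 1 lower, beside 7.64% and 17.4%, and in Control 13 of 15 were higher and 0 lower, beside 11.5% and 16.3%. A member low outside dividing cells passes the 5 CPM minimum only through a high level in the Top2a barcodes. Its call as higher is then fixed in advance by the minimum. These counts therefore do not test a link with Top2a, and they are not shares of all 67. In Proton only Hist1h2bc, Hist1h1e, Hist1h1b, Hist1h1c and Hist1h4d reached 5 CPM without Top2a. Their ratios in Proton were 0.583, 4.87, 22.0, 1.26 and 5.58 in that order.

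The annotated 3′ end of the message ran alongside these differences. Of the 25 genes, 13 have more than 100 annotated bases after the stem-loop; their median ratio with over without Top2a was 3.34 in Proton, 5.22 in Photon and 5.39 in Control, with a range of 0.623 to 24.03 in Photon. The 8 genes that end within 100 bases of the loop had medians of 13.8, 15.7 and 25.3, with a Photon range of 4.16 to 39.0. The ranges overlap: Hist1h2ae, with 151 bases and AATAAA after its loop, was among the highest, and Hist1h4h, with 46 bases, among the lower. Hist1h1c has 840 bases and Hist3h2a 1643 bases after the loop, both ending with AATAAA. Among the 4 genes with no loop in their model, Hist1h1b had ratios of 22.0, 28.4 and 35.9 and Hist1h2bc of 0.583, 0.603 and 0.796 in Proton, Photon and Control. The groups were formed with the levels known and the models may not match the ends used in these cells, so this is a description.

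**Figure D3:**
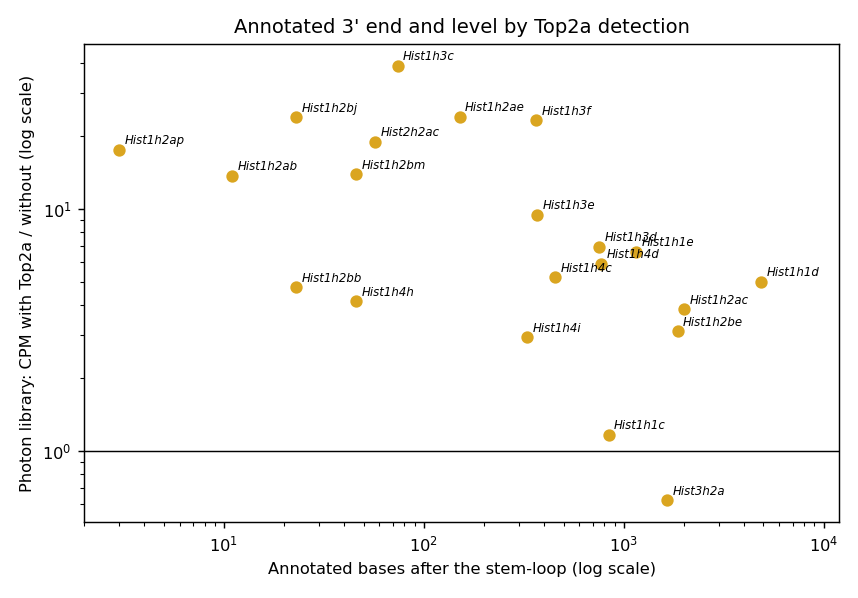
Annotated bases after the stem-loop (x, log scale) against the Photon ratio of CPM with over without Top2a (y, log scale), 1 point per gene for the 21 of 25 genes with a stem-loop. Genes at the right, such as Hist1h1c and Hist3h2a, lie lower than most at the left, and Hist1h2bb and Hist1h4h are low at the left.

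Within barcodes with Top2a, the histone sum was 941 CPM in Proton, 1637 CPM in Photon and 843 CPM in Control. Photon was 1.94 times Control (1.82 to 2.07) and Proton 1.12 times (1.04 to 1.20), whereas Proton was 0.575 times Photon (0.554 to 0.597). Photon thus stood above both others, whereas the direction of Proton against Control depended on the setting. Proton over Control was 0.980 with at least 2 Top2a UMIs and 0.956 with Mki67, another proliferation marker, in place of Top2a. With barcodes thinned to 2000 UMIs it was 1.28. Photon over Control was 1.65, 1.60 and 2.27 in the same order. Of 23 members measured in these barcodes, Photon over Control had 13 higher and 2 lower (background 7.12% and 16.9%), Proton over Control 4 higher and 7 lower (16.9% and 18.5%), and Proton over Photon 0 higher and 16 lower (27.3% and 16.1%). The medians were 0.61, 0.11 and −0.87 on the log2 scale, beside −0.14, 0.00 and 0.14 over all genes.

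Among these genes, Hist1h1b was 1.10 times Control in Proton (0.976 to 1.24) and 2.29 times in Photon (2.05 to 2.56). Hist1h2ae, at 75.9 CPM in Proton, 184.5 CPM in Photon and 53.9 CPM in Control, was 1.41 and 3.42 times Control. Hist1h2ab was lower in Proton than in either other library, at 15.3 CPM in Proton, 62.4 CPM in Photon and 34.3 CPM in Control, 0.447 times Control (0.298 to 0.676). Hist1h4c was lower in both irradiated libraries, at 2.16 CPM in Proton, 4.22 CPM in Photon and 11.4 CPM in Control, although the counts were only 9, 26 and 14 UMIs. Hist1h1e was nearly the same in these barcodes, at 209, 194 and 173 CPM in Proton, Photon and Control.

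Within barcodes without Top2a, the sum was 1.51 times Control in Proton (1.45 to 1.56) and 1.98 times in Photon (1.91 to 2.05), and most of this was Hist1h2bc. Without Hist1h2bc the ratios were 1.02 for Proton and 1.18 for Photon. Of 5 members measured there, Hist1h2bc and Hist1h1b were the 2 higher in Photon (background 6.74%) and in Proton (14.3%); Hist1h1e was the 1 lower in Photon over Control (7.65%), and 0 were lower in Proton (14.7%). In Proton over Photon, 0 were higher and 2 lower, beside 21.2% and 14.0%. Hist1h1e outside Top2a barcodes was at 43.0 CPM in Proton, 29.2 CPM in Photon and 53.6 CPM in Control, 0.802 (0.748 to 0.859) and 0.545 (0.507 to 0.585) times Control. Hist1h4i, another gene higher in both irradiated libraries in these barcodes, was at 4.15, 5.96 and 0.757 CPM in Proton, Photon and Control.

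Because the share of Top2a barcodes differs between libraries, the levels with and without Top2a were also averaged with 9.20% of weight on the Top2a barcodes in each. The histone sum was then 273 CPM in Proton, 396 CPM in Photon and 201 CPM in Control, and the ratio to Control 1.36 for Proton and 1.97 for Photon, lower than the 1.83 and 2.84 found without this step. For Hist1h1b the ratios became 1.25 for Proton and 2.42 for Photon, and for Hist1h2ae 1.55 and 3.60. Those of Hist1h2bc were 4.53 and 6.98, beside 4.44 and 6.78 without this step.

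**Figure D4:**
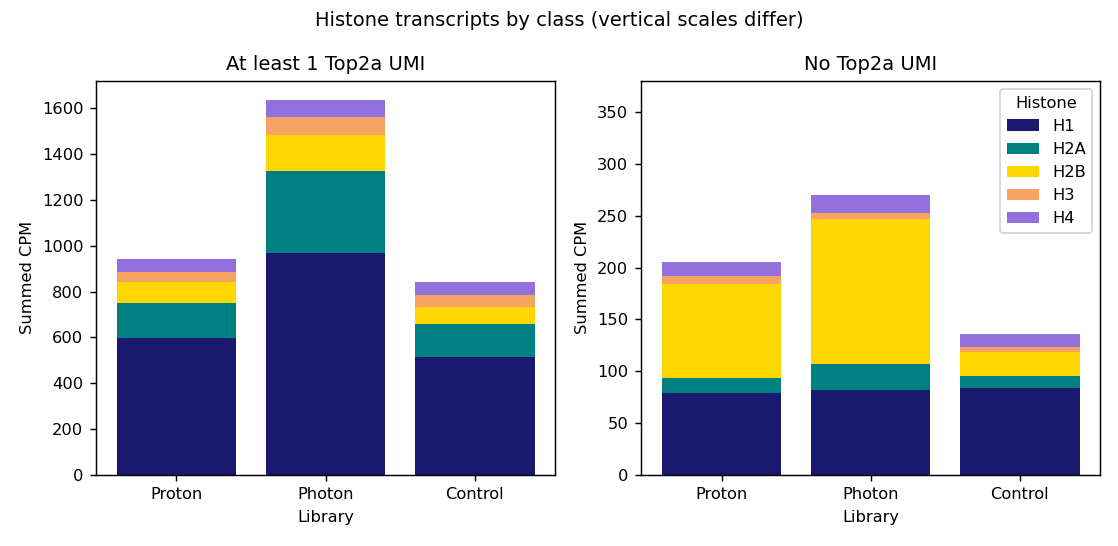
Summed CPM of the H1, H2A, H2B, H3 and H4 genes, stacked, in barcodes with (left) and without (right) a Top2a UMI, 1 bar per library; the vertical scales differ. H1 is the largest class with Top2a, and H2B, nearly all of it Hist1h2bc, makes most of the difference between libraries without Top2a.

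The shares of H1 and H2B differed between libraries mainly in barcodes without Top2a. There, H2B genes held 44.5% of histone UMIs in Proton, 51.7% in Photon and 17.2% in Control, and H1 genes 38.5%, 30.3% and 61.4%. In barcodes with Top2a, H1 genes held 63.4%, 59.1% and 60.8% and H2B genes 9.77%, 9.59% and 9.01% in the same order. With Top2a, H1 genes summed to 597 CPM in Proton, 967 CPM in Photon and 512 CPM in Control, and H2A genes to 151, 360 and 145 CPM. H2B summed to 92.0, 157 and 76.0 CPM, H3 to 47.0, 76.8 and 49.8 CPM and H4 to 54.6, 76.3 and 59.6 CPM in Proton, Photon and Control. Each class was highest in Photon, and the lowest ratio of Proton to Photon was that of H2A.

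As a rough guide to DNA synthesis and mitosis without Top2a, barcodes were split by whether a UMI of short gene sets was found. A cell in either phase can lack such a UMI, so the classes are not phases. The S phase set was Rrm2, Cdc45, Mcm5, Ccne2, Clspn and Gins2, and the mitosis set was Cdc20, Ccnb1, Ccnb2, Plk1 and Aurka. Barcodes with both had the highest histone level, at 1015 CPM in Proton (305 barcodes), 1587 CPM in Photon (689 barcodes) and 1322 CPM in Control (75 barcodes). With the S set only it was 518 CPM in Proton, 698 CPM in Photon and 170 CPM in Control, and with the mitosis set only 477, 641 and 254 CPM. With neither it was 197, 242 and 138 CPM. Barcodes with both sets were the deepest, with medians of 4621, 4784 and 6755 UMIs in Proton, Photon and Control, and doublets were not removed; their part in this level was not tested.

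Hist1h1b followed the sum, with 319 CPM in Proton, 578 CPM in Photon and 447 CPM in Control where both sets were found, and 14.5, 14.4 and 8.04 CPM where neither was. With the S set only, Hist1h1b was at 145 CPM in Proton, 261 CPM in Photon and 31.7 CPM in Control. Hist1h2bc had another pattern: it was highest in barcodes with the mitosis set only, at 123 CPM in Proton, 200 CPM in Photon and 37.5 CPM in Control, against 79.7, 123 and 18.1 CPM with neither set and 70.3, 85.9 and 15.3 CPM with the S set only. With both sets Hist1h2bc was at 73.55, 130 and 22.5 CPM in Proton, Photon and Control. Hist1h1c was also highest with the mitosis set only in Proton (29.1 CPM) and Photon (45.2 CPM), near its 27.2 and 39.0 CPM with both sets. In Control Hist1h1c was highest with both sets, at 28.2 CPM, beside 13.9 CPM with the mitosis set only and 20.3 CPM with neither. In Control only 184 barcodes had the mitosis set only. No intervals were taken for single genes in these classes, so the Control values of Hist1h2bc and Hist1h1c there are uncertain.

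**Figure D5:**
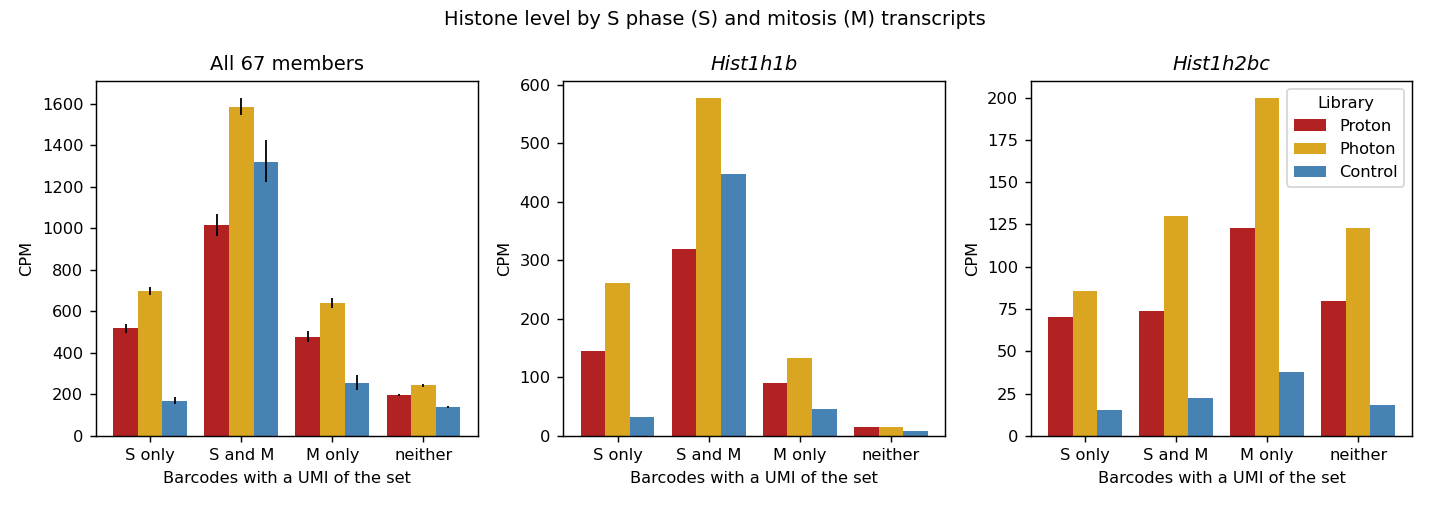
CPM of all 67 genes, of Hist1h1b and of Hist1h2bc in barcodes with a UMI of the S phase set only, of both sets, of the mitosis set only or of neither, 1 bar per library; error bars on the sum are exact 95% Poisson intervals and none are drawn for the single genes. The sum and Hist1h1b are highest with both sets, and Hist1h2bc with the mitosis set only.

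The Top2a barcodes of the libraries differed in these sets. An S set UMI was found in 47.7% of them in Proton, 65.0% in Photon and 47.2% in Control, and a mitosis set UMI in 40.3%, 50.4% and 33.9%. The part of this in the higher Photon histone level was not tested. Top2a itself was at 55.1 CPM in Proton, 58.9 CPM in Photon and 13.3 CPM in Control, so that Proton and Photon differed less in Top2a than in histone transcripts; Rrm2, a subunit of ribonucleotide reductase, which makes the deoxynucleotides for DNA synthesis, was at 16.2, 32.4 and 6.35 CPM.

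Outside the histone genes, the wider cell cycle lists were read by the same size rule over whole libraries, with the background shares given above. Of 21 S phase genes measured, 17 were higher and 0 lower in Photon over Control, 14 higher and 0 lower in Proton over Control, and 1 higher and 11 lower in Proton over Photon, with medians of 1.10, 0.79 and −0.65 (log2). Of 20 genes of G2 and mitosis, 20, 19 and 0 were higher and 0, 0 and 9 lower in the same comparisons. Of 15 genes that process histone messages, 0 were higher or lower in Photon over Control. In Proton over Control 0 were higher and 1 lower, and in Proton over Photon 2 were higher and 4 lower, Slbp among the lower.

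The gene lower in Proton over Control was Slbp, which encodes the stem-loop binding protein, at 16.9 CPM in Proton, 58.4 CPM in Photon and 50.9 CPM in Control. Proton was 0.332 times Control and 0.289 times Photon, and the difference was there both with Top2a (39.5, 123 and 114 CPM in Proton, Photon and Control) and without (14.0, 48.6 and 48.8 CPM). Slbp was higher with Top2a in each library, by 2.83, 2.54 and 2.34 times in Proton, Photon and Control. Npat, the activator of histone gene transcription, went the other way, at 47.1 CPM in Proton, 32.4 CPM in Photon and 41.3 CPM in Control. Casp8ap2 (FLASH), which acts in cutting the 3′ end of histone messages, was at 35.0, 41.0 and 46.3 CPM.

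Histone chaperones carry histones to new chromatin. Of 16 measured, 4 were higher and 0 lower in Photon over Control, beside 7.64% and 9.16% of all genes. In Proton over Control 4 were higher and 2 lower, beside 14.3% and 14.8%. In Proton over Photon 2 were higher and 5 lower, beside 22.1% and 14.2%. Nasp, which binds soluble H3 and H4, was at 54.4 CPM in Proton, 94.0 CPM in Photon and 65.8 CPM in Control, and Chaf1b, a subunit of the assembly factor CAF-1, at 10.7, 13.2 and 5.85 CPM. Replacement histones are made outside S phase as well, mostly from polyadenylated messages, which this assay captures better. Their sum was 2666 CPM in Proton, 6581 CPM in Photon and 5994 CPM in Control, above that of the 67 genes. Not every one was abundant: H1fx was at 4.44, 7.03 and 0.886 CPM in the same order. Of 9 measured, 2 were higher and 0 lower in Photon over Control. In Proton over Control 1 was higher and 4 lower, and in Proton over Photon 0 were higher and 8 lower. The shares of all genes are those given beside the chaperones. H3f3b, encoding H3.3, was at 1487 CPM in Proton, 4376 CPM in Photon and 4061 CPM in Control, and H2afz, encoding H2A.Z, at 406, 904 and 684 CPM. Cenpa, the centromeric H3, was instead higher in both irradiated libraries, at 30.4 CPM in Proton, 53.4 CPM in Photon and 13.3 CPM in Control, but with Top2a it was lower in both, at 90.3, 167 and 197 CPM.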

How the data were processed

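Barcodes, genes and UMI counts per gene and barcode were read from the 3 deposited matrices; the values are the authors' raw counts, made with Cell Ranger 7.0.0 per the file headers (7.0.1 per the submitters' processing notes) on mm10. The sources used here do not state the annotation release, the handling of intronic reads or the fate of reads matching several histone copies. Barcodes with at least 500 genes and at most 20% mitochondrial UMIs were kept. No doublet caller was run; leaving out barcodes above the 95th percentile of UMIs of their library was an alternative. UMIs were summed per library, and per library and Top2a stratum, and divided by total UMIs (CPM). Intervals are exact: Poisson for a sum, conditional binomial (Clopper-Pearson) for a ratio, at 95%, covering counting error only. A gene was called higher or lower by a fold of at least 1.5 at a mean of at least 5 CPM, with no test, since each group is 1 library; the background is the same rule over all genes (Top2a left out where barcodes are split by it). The calls and intervals were tried on simulated Poisson counts, drawn independently for each gene. Such counts leave out the spread between barcodes, so the simulation does not show how the intervals hold for it. Thinning drew 2000 UMIs per barcode without replacement.

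Genes named are the 25 members with the highest CPM averaged over the libraries, the 3 highest and 3 lowest ratios in each comparison among members with a mean of at least 5 CPM, and up to 4 genes of each list. Members, lists and the Top2a split were chosen with earlier results of these data known. Splitting barcodes by Isg15 or Cdkn1a, leaving out Hist1h2bc and keeping only genes with unshared ends were chosen after seeing the data. Transcripts and positions are from GENCODE M21 (GRCm38) and promoters from RefSeq (GRCm38.p6). Python 3.11.15, numpy 2.4.6, scipy 1.17.1, pandas 2.3.3 and matplotlib 3.10.9 were used.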

Additional observations from a re-analysis of the deposited data

How the results depend on the processing

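Of the alternatives to 18 values, 45 moved the value by less than its interval (or a count by less than 1.5 times), 49 by more, and 2 turned a direction: within Top2a barcodes Proton over Control, 1.12, became 0.980 with at least 2 Top2a UMIs and 0.956 with Mki67. No paired analysis was possible because each group is 1 library, and none could be left out.

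Scaling by the median of gene ratios gave 3.09 for the histone sum in Photon over Control and 0.593 in Proton over Photon. The median over members gave 5.00 and 0.549, and only genes with unshared ends 3.22 and 0.557. Holding the Top2a share equal gave 1.97 in Photon over Control, 1.36 in Proton over Control and 0.690 in Proton over Photon, and leaving out Hist1h2bc gave 2.32 and 1.48 for the first pair.

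A minimum of 1 CPM gave 18 members higher in Photon over Control, and 13 higher and 2 lower in Proton over Control. In Proton over Photon it gave 14 lower. A minimum of 25 CPM, reached only by Hist1h2bc, Hist1h1e and Hist1h1b, gave 2 higher, 2 higher and 2 lower in the same comparisons. No share over all genes is given at 25 CPM.

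With Top2a, Photon over Control was 1.65 with at least 2 UMIs, 2.27 thinned and 1.60 with Mki67; Proton over Control was 1.28 thinned, and Proton over Photon 0.598 with Mki67. Without Top2a, Photon over Control was 2.19 thinned, 2.30 with Mki67 and 1.18 without Hist1h2bc. Proton over Control was 1.60, 1.565 and 1.02 in the same order, and Proton over Photon 0.733, 0.681 and 0.865.

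With over without Top2a, the sum in Proton, Photon and Control was 5.96, 7.62 and 9.15 with at least 2 UMIs, 4.27, 4.87 and 6.99 with Mki67, 3.50, 3.71 and 3.81 with Rrm2, 4.10, 5.31 and 5.12 thinned, and 7.44, 11.2 and 7.03 without Hist1h2bc. Leaving out the deepest barcodes gave 6.29 in Photon and 5.18 in Control. The cause of these shifts was not tested. Depth limits the lower members: with few UMIs per stratum their intervals span several fold.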

Other observations

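In barcodes without Top2a, thinned to 2000 UMIs, Hist1h2bc was somewhat higher where Isg15, an interferon-response gene, was detected: 90.4 CPM with and 80.4 CPM without in Proton, 134 and 122 CPM in Photon, and 24.4 and 17.6 CPM in Control, with intervals that overlap in all 3 libraries. Split by Cdkn1a, which encodes the cell cycle inhibitor p21, it was at 97.2 CPM with and 82.9 CPM without in Proton, 144 and 125 CPM in Photon, and 20.0 and 17.6 CPM in Control; the intervals overlap in Proton and Control and not in Photon (136 to 153 and 119 to 131 CPM). For Hist1h2bc the differences between libraries were larger than those within them. Hist1h1c was likewise higher with Cdkn1a, at 21.7 CPM against 15.9 CPM in Proton and 26.45 against 22.0 CPM in Photon. In Control it was at 20.7 and 20.1 CPM. Hist1h1e was lower with Cdkn1a in Proton (45.0 and 53.2 CPM) and nearly level in Photon (37.2 and 36.1 CPM) and Control (58.5 and 57.4 CPM). The intervals by Cdkn1a overlap for these genes, Hist3h2a and Hist1h4d in each library. The splits were chosen after the values were seen.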
